A study of Mus musculus with 4 samples.

Results

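The 10 genes described here encode the main heat shock proteins of the cytosol and of the mitochondrial matrix: Hspa1a, Hspa1b, Hspa8, Hsph1, Dnajb1, Hsp90aa1, Hsp90ab1, Fkbp4, Hspd1 and Hspe1. They were chosen by gene symbol as a family, and all 10 were among the 15835 genes of the count table. RNA came from type 2 innate lymphoid cells (ILC2), lymphocytes without antigen receptors that live in tissues and release type 2 cytokines. The cells were taken from the islets of Langerhans in the pancreas of C57BL/6j mice. The 2 groups were fasted mice and fed mice, with 4 libraries each, and no other treatment or modified allele is named. The series title gives the effect of fasting on the function of these cells as its subject. Fasting time, age, sex, and whether a library pooled mice are not given in the sources used here. Each library goes by its group and its column number, which was 1, 3, 4 or 5.

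Heat shock proteins are chaperones, which bind unfolded proteins and help them reach or keep their folded shape. HSP70 proteins clamp on exposed stretches with the help of J-domain partners and are reset by exchange factors. HSP90 proteins receive clients from HSP70 and finish the folding of kinases and steroid hormone receptors, and HSP60 forms a barrel with the lid HSP10 in mitochondria. Some members are made at all times, and others are switched on by heat shock factor 1 (HSF1) when unfolded proteins accumulate. In tissue that is cut and digested to free cells, the inducible members are also well known to respond to the handling.

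HSF1 binds inverted repeats of the unit GAA, called heat shock elements. RefSeq windows of 300 bases (GRCm38.p6; 250 before and 50 after an annotated transcription start) were found for 7 of the 10 genes: Hspa1a, Hspa1b, Hsph1, Dnajb1, Fkbp4, Hspd1 and Hspe1. The 5 windows printed here show how the paired inducible genes differ and where the elements were found. The windows of Hspa1a (chr17:34972107-34972406, minus strand) and Hspa1b (chr17:34959189-34959488, minus strand) differed at 4 of 300 bases, which are in capitals, and were 98.7% identical.
Hspa1a: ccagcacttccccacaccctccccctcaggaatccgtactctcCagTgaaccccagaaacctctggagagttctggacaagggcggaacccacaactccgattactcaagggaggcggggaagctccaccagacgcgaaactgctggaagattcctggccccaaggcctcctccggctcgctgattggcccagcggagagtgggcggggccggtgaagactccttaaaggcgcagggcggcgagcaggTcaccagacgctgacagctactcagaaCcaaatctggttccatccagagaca
Hspa1b: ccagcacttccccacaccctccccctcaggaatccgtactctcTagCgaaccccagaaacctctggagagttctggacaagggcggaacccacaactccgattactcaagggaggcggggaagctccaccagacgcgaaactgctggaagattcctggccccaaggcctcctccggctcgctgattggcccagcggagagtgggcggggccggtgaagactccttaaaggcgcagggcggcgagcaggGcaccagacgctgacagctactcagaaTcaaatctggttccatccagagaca
In the windows of Hspe1 (chr1:55087898-55088197, plus strand) and Hsph1 (chr5:149636287-149636586, minus strand), capitals mark the element of 3 units, which in Hspe1 matched at 2 overlapping places. In Hsph1 it lies within the 50 bases after the start.
Hspe1: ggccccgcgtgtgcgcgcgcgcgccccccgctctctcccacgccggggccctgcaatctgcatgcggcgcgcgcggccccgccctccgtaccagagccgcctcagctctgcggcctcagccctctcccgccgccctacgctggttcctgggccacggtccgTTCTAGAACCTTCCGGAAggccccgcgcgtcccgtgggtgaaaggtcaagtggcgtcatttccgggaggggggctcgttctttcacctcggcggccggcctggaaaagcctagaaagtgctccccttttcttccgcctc
Hsph1: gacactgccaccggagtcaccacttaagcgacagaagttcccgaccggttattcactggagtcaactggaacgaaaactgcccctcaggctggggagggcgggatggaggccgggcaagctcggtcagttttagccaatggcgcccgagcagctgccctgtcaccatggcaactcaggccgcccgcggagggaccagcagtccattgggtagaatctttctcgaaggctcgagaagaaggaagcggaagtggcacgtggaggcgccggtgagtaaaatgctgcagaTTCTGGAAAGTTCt
In the window of Fkbp4 (chr6:128438607-128438906, minus strand), capitals mark an element of 2 units.
Fkbp4: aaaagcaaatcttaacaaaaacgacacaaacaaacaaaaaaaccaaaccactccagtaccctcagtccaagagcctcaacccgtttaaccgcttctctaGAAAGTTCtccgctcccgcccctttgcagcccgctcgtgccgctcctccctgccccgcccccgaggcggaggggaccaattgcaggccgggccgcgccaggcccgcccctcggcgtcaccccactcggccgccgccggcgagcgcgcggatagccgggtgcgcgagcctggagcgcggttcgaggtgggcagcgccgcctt

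The 3-unit element was searched as GAANNTTCNNGAA or TTCNNGAANNTTC, which are each other's reverse complement, so both strands were covered. It was present in 198 of 32851 windows of this length (0.603%) and in 4 of the 10 windows of the 7 genes. Those windows belong to 3 genes, Hspd1, Hspe1 and Hsph1. Hspd1 and Hspe1 lie head to head. The Hspd1 window with the match shares 285 bases with that of Hspe1, so their match is the same stretch of DNA. The other Hspd1 window had no match and shares 4 bases with that of Hspe1. The Hsph1 windows overlap and hold the same element. The 2-unit element, GAANNTTC or TTCNNGAA, reads the same on both strands and is part of every 3-unit match. It was present in 4946 windows (15.1%) and in 7 of the 10 windows of these genes, which belong to 6 of the 7, all but Dnajb1. A match of letters is a description of the window, not a measured binding site.

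The libraries were made with CEL-seq2, which tags each sample with a barcode and reads the 3′ end of polyadenylated RNA, and the deposited values were counts per gene. Totals ran from 2041697 to 9366807 counts in fasted libraries and from 1797504 to 25252366 in fed libraries. Of 15 ILC2 markers, among them Thy1 and Klrg1, 13 had counts in all 8 libraries, Tcf7 in 6 and Rora in 3. The ILC2 list took between 0.144% and 0.611% of counts in fasted libraries and between 0.114% and 0.411% in fed libraries. Transcripts of acinar cells, the enzyme-secreting cells around the islets, were far more abundant. The 22 acinar markers, led by 2210010C04Rik and Cpa1, took 2.93%, 3.26%, 66.7% and 68.5% of counts in fasted libraries 1, 3, 4 and 5, against 41.3%, 46.4%, 71.1% and 63.8% in fed libraries. Fasted libraries 1 and 3 are called acinar-poor. Summed markers of islet endocrine cells (8 of 12 in the table, led by Ttr and Ins2) ranged from 6.86 to 51.0 CPM (counts scaled to a common library total) in fasted libraries and from 40.3 to 90.1 in fed libraries. T cell markers (6 of 8, Cd3g and Lef1) stood at 170.4 and 132.3 CPM in the acinar-poor fasted libraries 1 and 3. They stood at 51.8 and 45.3 CPM in fasted libraries 4 and 5, and ranged from 21.7 to 55.6 CPM in fed libraries. B cell markers (4 of 6, Cd79b and Cd79a) ranged from 4.34 to 7.35 CPM in fasted and from 0.854 to 3.34 CPM in fed libraries. Marker sums are over library totals, so a larger acinar share lowers those of the other cell types. Myeloid markers (10 of 11, Cd74 and Fcer1g) stood at 477.1 CPM in fasted library 1 and between 23.9 and 66.35 CPM in the other fasted libraries. In fed libraries they ranged from 33.6 to 78.4 CPM. Ductal, stromal and endothelial markers (12 of 12, Krt8 and Krt18) ranged from 17.1 to 177.5 CPM in fasted and from 112 to 235 CPM in fed libraries. On the TMM scale used for genes, Cd3g averaged 47.7 ± 5.03 CPM in fasted and 33.6 ± 4.92 CPM in fed libraries (SD, n = 4 each), and Cd79b 4.69 ± 1.61 CPM in fasted and 1.71 ± 0.82 CPM in fed libraries. For neither gene did the groups overlap, as was the case, with fasted higher, for 170 of the 7700 genes tested. Lef1 averaged 21.4 ± 8.04 CPM in fasted and 9.69 ± 3.18 CPM in fed libraries, with overlap, and none of the 3 passed the adjusted threshold. The part of these cells in the results was not tested. In bulk RNA like this, fewer cells of a type and less RNA per cell cannot be told apart.

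None of the 10 genes differed between fasted and fed libraries past the threshold after adjustment over all genes. The libraries held acinar RNA in varying shares, and which cells the transcripts of the 10 genes came from was not tested. All 10 had a negative log2 fold change (fasted minus fed), with a median of -0.73, against -0.002 over all 7700 genes tested. With library totals in place of scaled sizes, Hspa8 and Hspe1 turned positive, at 0.12 and 0.24, and the median of all genes itself moved to 0.507. Much of this shift rested on fed library 3, where 9 of the 10 genes had their highest level of the 8 libraries. Without it 7 of 10 were negative, with a median of -0.17. Fkbp4, which encodes an HSP90 partner of steroid receptors, was also highest there, but its fasted libraries all lay below every fed library. Fkbp4 stayed negative whichever library was left out, as did all members but Hspa1a, Hspa8 and Dnajb1.

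**Figure D1:**
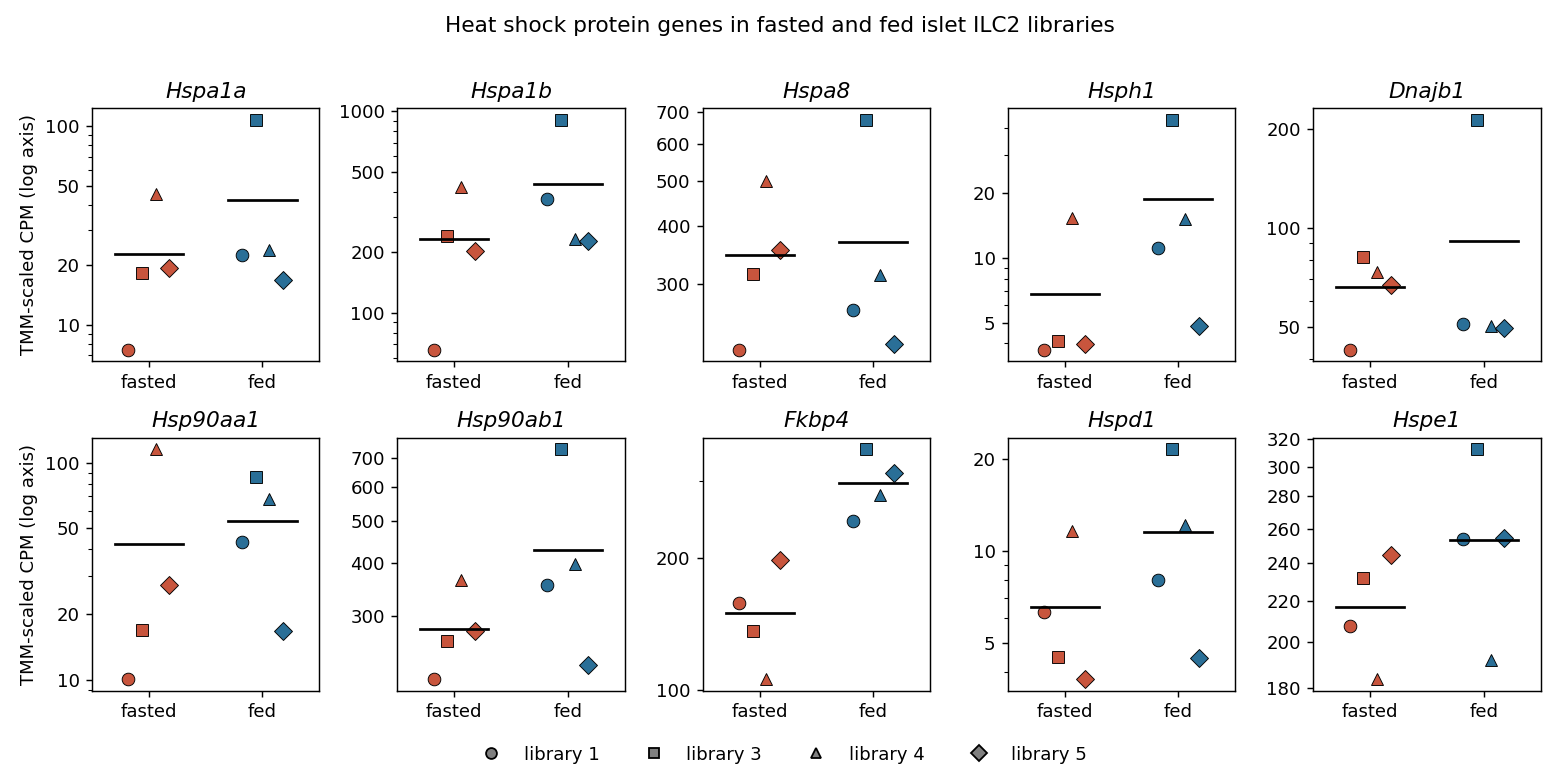
Level of each heat shock protein gene (y axis, CPM over TMM-scaled library size, log axis, a separate range per gene) in the 4 fasted and 4 fed libraries. Symbols give the library number and bars the group mean. Fed library 3 (square) is the highest point for every gene but Hsp90aa1, and only for Fkbp4 do the groups not overlap.

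Levels of genes are CPM over library sizes scaled by TMM factors, which correct for a few abundant genes taking up a library. Hspa1a and Hspa1b encode near-identical stress-inducible HSP70 proteins and lie 9951 bases apart on chromosome 17, at 34969190 to 34972156 and 34956436 to 34959238 in mm10. Hspa1a stood at 7.49, 18.1, 45.4 and 19.3 CPM in fasted libraries 1, 3, 4 and 5, against 22.3, 107.0, 23.6 and 16.8 CPM in fed libraries 1, 3, 4 and 5. Fed library 3 stood at 5.12 times the mean of the other fed libraries, fasted library 1 was the lowest, and the groups overlapped. The mean was 22.6 ± 16.1 CPM in fasted and 42.4 ± 43.2 CPM in fed libraries (SD, n = 4 each), a log2 fold change of -0.92 ± 0.70 (SE). Hspa1b stood at 66.0, 240.0, 421 and 204 CPM in fasted libraries, against 368, 909, 233 and 229 CPM in fed libraries. Its order was much the same, with fed library 3 highest, fasted library 1 lowest and the remaining 6 libraries mixed. Its means were 233 ± 146 CPM in fasted and 435 ± 322 CPM in fed libraries, a log2 fold change of -0.90 ± 0.61. Without fed library 3 the fold changes of Hspa1a and Hspa1b were 0.11 and -0.25. The last 500 bases of each transcript, which a 3′ method reads, shared no run of 50 bases with a transcript of another gene, so these copies can be told apart at that end. Hspa1a overlaps Gm20481 on the other strand, and the sources used here do not say whether the counting used strand.

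Hspa8 (chromosome 9, 40800984 to 40810087) encodes HSC70, the HSP70 that cells make at all times. Its levels were 218, 316, 499 and 355 CPM in fasted libraries, against 265, 675, 314 and 223 CPM in fed libraries. Apart from fed library 3, fasted libraries 3, 4 and 5 were above the fed ones. The means were 347 ± 117 CPM in fasted and 369 ± 207 CPM in fed libraries, and the log2 fold change of -0.09 ± 0.37 became 0.37 without fed library 3. Counts of Hspa8 are uncertain, because 81.8% of the 50-base words in its last 500 bases also occur in transcripts of 11 other genes, such as the gene model Gm15459.

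Hsph1 (chromosome 5, 149614287 to 149636376) encodes HSP110, an exchange factor that resets HSP70 and helps it dissolve aggregates. It had the most negative log2 fold change of the 10 genes, -1.48 ± 0.69. Its levels were low, at 3.74, 4.10, 15.3 and 3.98 CPM in fasted libraries, against 11.2, 43.7, 15.2 and 4.795 CPM in fed libraries. Fasted library 4 stood with the fed libraries 1 and 4, and fed library 5 stood with the other fasted libraries. The means were 6.78 ± 5.68 CPM in fasted and 18.7 ± 17.2 CPM in fed libraries. These rest on 16 to 83 counts in a fasted library and 14 to 323 in a fed library. The fold change was -0.62 without fed library 3 and -2.27 without fasted library 4.

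Dnajb1 (chromosome 8, 83608193 to 83612653) encodes the inducible HSP40, a J-domain protein that delivers clients to HSP70. It stood at 42.8, 82.0, 73.7 and 67.5 CPM in fasted libraries, against 51.3, 213.5, 50.5 and 49.7 CPM in fed libraries. The fed libraries other than library 3 lay close together, at 50.5 ± 0.82 CPM (SD, n = 3), and fasted libraries 3, 4 and 5 lay above them. The means were 66.5 ± 16.9 CPM in fasted and 91.2 ± 81.5 CPM in fed libraries. The log2 fold change was -0.46 ± 0.49 with all libraries and 0.39 without fed library 3, so its direction rested on that library.

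Hsp90aa1 (chromosome 12, 110690605 to 110702728) encodes the inducible cytosolic HSP90 and Hsp90ab1 (chromosome 17, 45567775 to 45573271) the constitutive form. Hsp90aa1 stood at 10.1, 17.0, 115.2 and 27.3 CPM in fasted libraries, against 43.3, 86.3, 68.4 and 16.8 CPM in fed libraries. It was the only gene of the 10 whose highest library was not fed library 3 but fasted library 4, and its other fasted libraries were mostly below the fed ones. The means were 42.4 ± 49.1 CPM in fasted and 53.7 ± 30.3 CPM in fed libraries. The log2 fold change was -0.35 ± 0.79 with all libraries, -0.02 without fed library 3 and -1.58 without fasted library 4. It was positive, at 0.41, when the acinar-poor fasted libraries were left out, and stood at 0.18 with the acinar share as a covariate.

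Hsp90ab1 varied less, at 215, 263, 364 and 278 CPM in fasted libraries, against 354, 733, 396 and 232 CPM in fed libraries. Fed library 5 lay among the fasted libraries, and fed libraries 1, 3 and 4 lay at or above most of them. The means were 279.9 ± 62.3 CPM in fasted and 429 ± 214 CPM in fed libraries, a log2 fold change of -0.62 ± 0.33 that became -0.23 without fed library 3. A small part of its 3′ end, 7.76% of the words, also occurs in Gm6368.

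Fkbp4 (chromosome 6, 128429735 to 128438677) encodes FKBP52, an immunophilin that docks on HSP90 and helps steroid hormone receptors, the glucocorticoid receptor included, to mature. It stood at 158, 136, 106 and 198 CPM in fasted libraries, against 242, 353, 278 and 312 CPM in fed libraries. The highest fasted library, number 5, lay below the lowest fed library, number 1. The means were 149.5 ± 38.8 CPM in fasted and 296.5 ± 47.6 CPM in fed libraries, a log2 fold change of -0.99 ± 0.24. This had the smallest p of the 10 genes and did not pass the threshold of 0.05 (edgeR quasi-likelihood test, unadjusted p = 0.0015, Benjamini-Hochberg adjusted p = 0.50 over 7700 genes). Without fed library 3 it was -0.90, without the acinar-poor fasted libraries -0.97, and without all of these -0.87. Over the 20 alternatives it ran from -1.16 to -0.50 and was negative in each, with adjusted p from 0.094 (DESeq2) to 1.00. Its counts ran from 574 to 1044 in fasted and from 543 to 3760 in fed libraries.

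Hspd1 encodes HSP60, the barrel-shaped chaperonin of the mitochondrial matrix, and Hspe1 encodes HSP10, its lid. The genes lie head to head on chromosome 1, at 55077835 to 55088243 and 55088132 to 55091307, and overlap at their starts. Hspd1 stood at 6.32, 4.49, 11.6 and 3.79 CPM in fasted libraries, against 8.03, 21.5, 12.1 and 4.45 CPM in fed libraries. Fed library 3 was highest, and within each number the fasted library was the lower. The means were 6.55 ± 3.54 CPM in fasted and 11.5 ± 7.36 CPM in fed libraries, a log2 fold change of -0.83 ± 0.53, or -0.34 without fed library 3. It rests on few counts, 20 to 63 in fasted libraries and 13 to 164 in fed libraries. Hspe1 stood at 207, 232, 184 and 244 CPM in fasted libraries, against 254, 312, 192 and 254 CPM in fed libraries. It was the most even of the 10 genes across libraries, and fed library 3 stood at only 1.34 times the mean of the other fed libraries. The means were 217 ± 26.9 CPM in fasted and 253 ± 49.1 CPM in fed libraries, a log2 fold change of -0.22 ± 0.21, which was -0.11 without fed library 3 and -0.34 without fed library 4. Its counts are uncertain, because 53.2% of the words at its 3′ end also occur in transcripts of 6 other genes, among them pseudogenes such as Hspe1-ps2.

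With edgeR, 0 of the 10 had an adjusted p under 0.05, and 0% of the 7700 genes tested did, although 338 genes had an unadjusted p under 0.05. At an unadjusted p under 0.05 with a negative fold change the members counted 1, Fkbp4, against 1.62% of all genes. DESeq2 called 8 genes, or 0.11% of those with an adjusted p, and limma-voom 0 (0%), none of them a member. Unadjusted, the count of members was 2 with DESeq2 and 4 with limma-voom, against 4.57% and 9.27% of all genes in either direction. It was 5 without fasted library 4 and 3 without fed library 5, against 7.14% and 5.27%. A negative log2 fold change was found in 10 of 10 members and in 50.2% of all genes. Groups that did not overlap, with fasted lower, were found for 1 of 10 members and for 1.31% of all genes. The members' standard errors had a median of 0.513 on the log2 scale. Differences larger than that were also not told from 0, such as -1.48 ± 0.69 for Hsph1 and -0.92 ± 0.70 for Hspa1a (SE).

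The libraries that stood apart were largely the same from gene to gene. Fed library 3 was the highest of the 8 for 9 of 10 members, against 10.2% of all genes. Fasted library 4 was the highest fasted library for 7 of 10, against 29.2%, and fasted library 1 the lowest of the 8 for 7 of 10, against 14.8%. Summed over the 10 genes, levels were 934, 1313, 1835 and 1401 CPM in fasted libraries 1, 3, 4 and 5, against 1620, 3454, 1582 and 1343 CPM in fed libraries. The excess of fed library 3 over the mean of the other fed libraries was largest for Hspa1a, Dnajb1 and Hsph1, at 5.12, 4.23 and 4.22 times, and smallest for Hspe1 and Fkbp4, at 1.34 and 1.27 times. Of these, Hsph1 and Hspe1 have the 3-unit element in a window, Hspa1a and Fkbp4 have the 2-unit element only, and Dnajb1 has neither.

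Fed library 3 had neither the highest nor the lowest total or acinar share. Of 13 tested ILC2 markers 3 were highest of the 8 libraries there, against 10.2% of all genes. These were the transcription factor gene Gata3 at 346 CPM and the cytokine and growth factor genes Il13 and Areg at 117 and 191 CPM. Gata3 stood between 170 and 209 CPM in the other fed libraries. Among fed libraries alone, Il1rl1, Il7r and Icos were also highest in library 3. Klrg1 was lowest there, at 269 CPM against 454, 276 and 491 CPM in fed libraries 1, 4 and 5. Il2ra, Id2, Thy1, Ptprc, Il5 and Il17rb lay within the range of the other fed libraries. The part of ILC2 content in the heat shock levels of fed library 3 was not tested. The immediate early list holds 20 genes, many of which cells switch on within minutes of a stimulus or of handling. Its summed level in fed library 3 was 12970 CPM. The other fed libraries stood at 15930 (library 1), 11990 (library 4) and 16140 CPM (library 5), and the fasted libraries between 13500 and 19050 CPM. Jund gave the largest part of that sum, 3507 CPM in fed library 3, against 6441, 3859 and 6223 CPM in fed libraries 1, 4 and 5. The lower sum of fed library 3 than of fed libraries 1 and 5 lay mostly in Jund. None of these 20 genes had its highest level in fed library 3, against 10.2% of all genes. The part of handling in the heat shock levels was not tested.

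**Figure D2:**
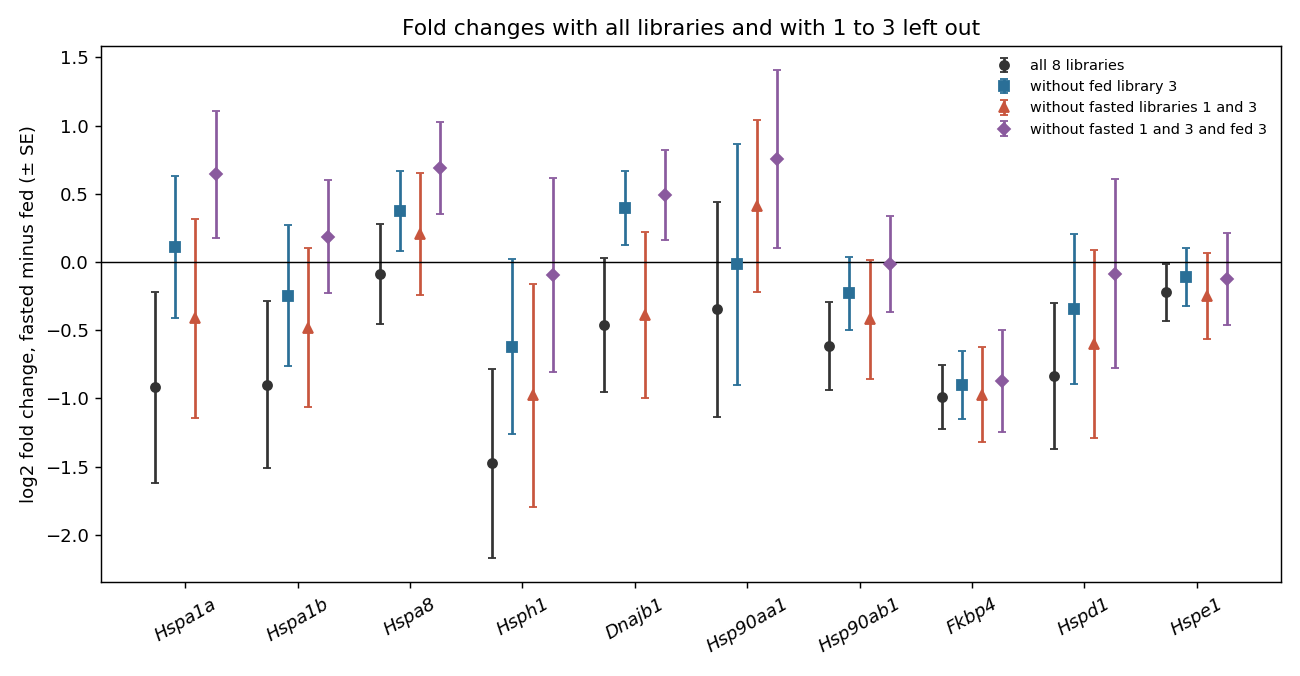
Log2 fold change, fasted minus fed, with its standard error (y axis) for each gene, with all 8 libraries, without fed library 3, without fasted libraries 1 and 3, and without all 3. Without fed library 3 the values of Hspa1a, Hspa8 and Dnajb1 lie above 0, and Fkbp4 stays between -0.99 and -0.87 in the 4 settings drawn.

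Leaving out fed library 3 gave positive values for Hspa1a, Hspa8 and Dnajb1, at 0.11, 0.37 and 0.39. When the acinar-poor fasted libraries were left out, 8 of 10 were negative, with Hspa8 at 0.21 and Hsp90aa1 at 0.41 above 0, and the median was -0.42. Without those and fed library 3, an alternative chosen after seeing the data, 5 of 10 were negative and the median was 0.086. In that setting Hspa1a, Hspa8, Hsp90aa1 and Dnajb1 stood at 0.64, 0.69, 0.75 and 0.49 and Fkbp4 at -0.87. None of the 10 was called in any of these settings.

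Libraries of equal number were also compared directly, since their deviations from the group means correlated. Within number 1 and within number 3, whose fasted libraries are the acinar-poor ones, all 10 genes were lower in the fasted library. Number 3 also holds fed library 3, the highest of the 8 libraries for 9 of the 10 genes. The share of all genes lower within a single number was not counted. Within number 4, 4 of 10 were lower, and within number 5, 5 of 10. Fasted was lower in all 4 pairs for 3 of 10 genes, Fkbp4, Hspd1 and Hspe1, against 8.19% of all genes. The differences of Fkbp4 were -0.61, -1.38, -1.39 and -0.66 on the log2 scale for numbers 1, 3, 4 and 5. Those of Hspe1 were much smaller, at -0.29, -0.43, -0.06 and -0.06. Hspa1a split by number, at -1.53 and -2.54 for numbers 1 and 3 but 0.93 and 0.20 for numbers 4 and 5. Hsp90aa1 split likewise, at -2.07 and -2.32 for numbers 1 and 3 and at 0.75 and 0.69 for numbers 4 and 5. So did Dnajb1 and constitutive Hspa8, the latter at -0.28, -1.09, 0.67 and 0.67 for numbers 1, 3, 4 and 5. Hspa1b and Hsph1 did not, at 0.86 and 0.01 for number 4 but -0.16 and -0.25 for number 5. Number, acinar share, any shared batch and, for number 3, the high levels of fed library 3 cannot be told apart here.

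**Figure D3:**
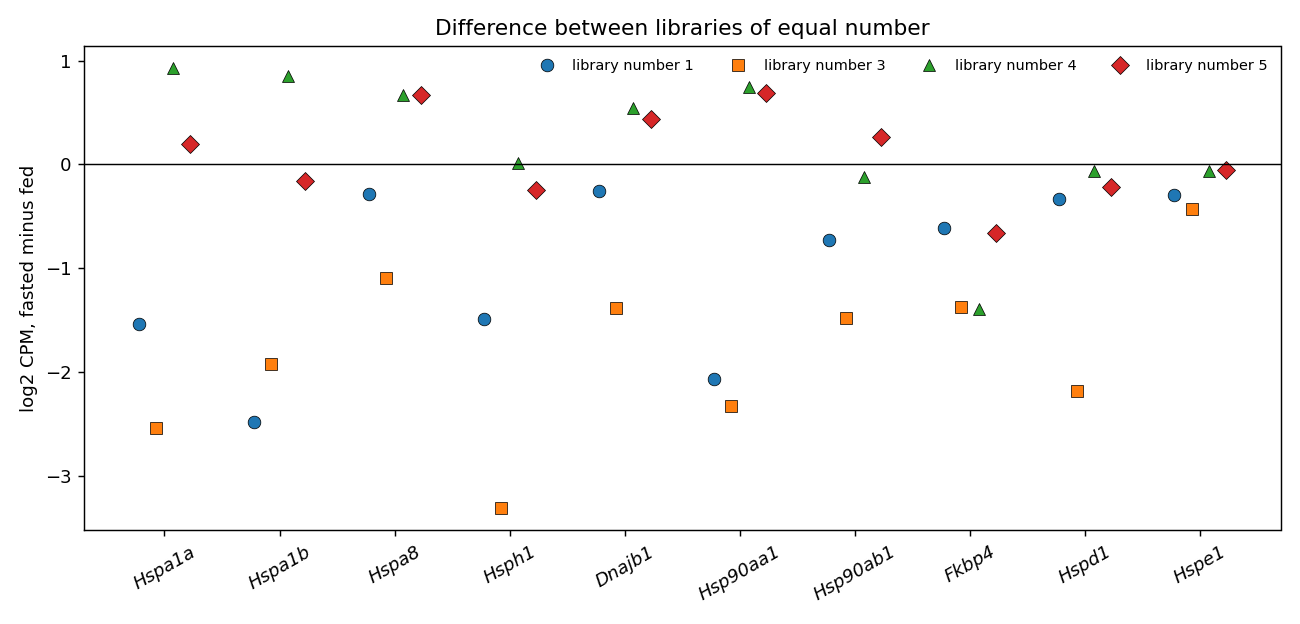
Difference in log2 CPM between the fasted and the fed library of equal number (y axis) for each gene, with a symbol per number. Numbers 1 and 3 lie below 0 for all 10 genes, numbers 4 and 5 lie on both sides of 0, and all 4 symbols of Fkbp4 lie at -0.61 or lower.

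Ratios of 2 genes within a library do not depend on how that library was scaled, and show whether the members kept their balance. They are ratios of counts, not of molecules per cell. The inducible HSP70 genes together over constitutive Hspa8 gave ratios of 0.338, 0.817, 0.934 and 0.631 in fasted libraries 1, 3, 4 and 5, against 1.47, 1.5, 0.817 and 1.10 in fed libraries. Inducible counts exceeded Hspa8 counts in fed libraries 1, 3 and 5 and in no fasted library, and the groups overlapped only through fed library 4. Because 81.8% of the words at the 3′ end of Hspa8 also occur in other genes, where these ratios lie relative to 1 is uncertain. The mean log2 ratio was -0.66 ± 0.65 in fasted and 0.25 ± 0.42 in fed libraries (SD, n = 4 each), a difference of -0.90. This did not pass (exact two-sided permutation test over 70 assignments, p = 0.057, adjusted p = 0.29 over 5 ratios). The difference was -0.79 without fed library 3, -0.60 without fasted library 1 and -0.63 without both acinar-poor fasted libraries, and negative in all 13 alternatives.

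The other ratios overlapped widely. Hspa1b had between 8.69 and 13.2 times the counts of Hspa1a in fasted libraries and between 8.48 and 16.4 times in fed libraries, a log2 difference of -0.18. It was -0.02 when fed library 1 was left out and -0.33 when fed library 3 was, and also moved by over 1.5 times, to -0.10, -0.30 and -0.11, when fasted library 1, fasted library 3 or fed library 5 was. Inducible over constitutive HSP90, Hsp90aa1 over Hsp90ab1, ran from 0.0474 to 0.317 in fasted and from 0.0731 to 0.173 in fed libraries, a log2 difference of -0.23 that was 0.60 without the acinar-poor fasted libraries. HSP60 over its lid HSP10, Hspd1 over Hspe1, ran from 0.0159 to 0.0637 in fasted and from 0.0182 to 0.0691 in fed libraries, a log2 difference of -0.51. That difference was between -0.91 (fasted library 4 out) and -0.24 (fasted library 5 out) when a library was left out, and stood at -0.25, -0.29 and -0.90 when fed library 3, 4 or 5 was. The mitochondrial pair over Hspa8 ran from 0.391 to 0.983 in fasted and from 0.494 to 1.16 in fed libraries, a log2 difference of -0.22. Hspe1 and Hspa8 share 53.2% and 81.8% of the words at their 3′ ends with other genes, so ratios with either are uncertain. Exact permutation p-values of these 4 ratios ran from 0.43 to 0.71, with an adjusted p of 0.71 for each. The smallest p that 4 against 4 libraries allow is 0.0286, which would not pass alone after adjustment over 5 ratios.

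**Figure D4:**
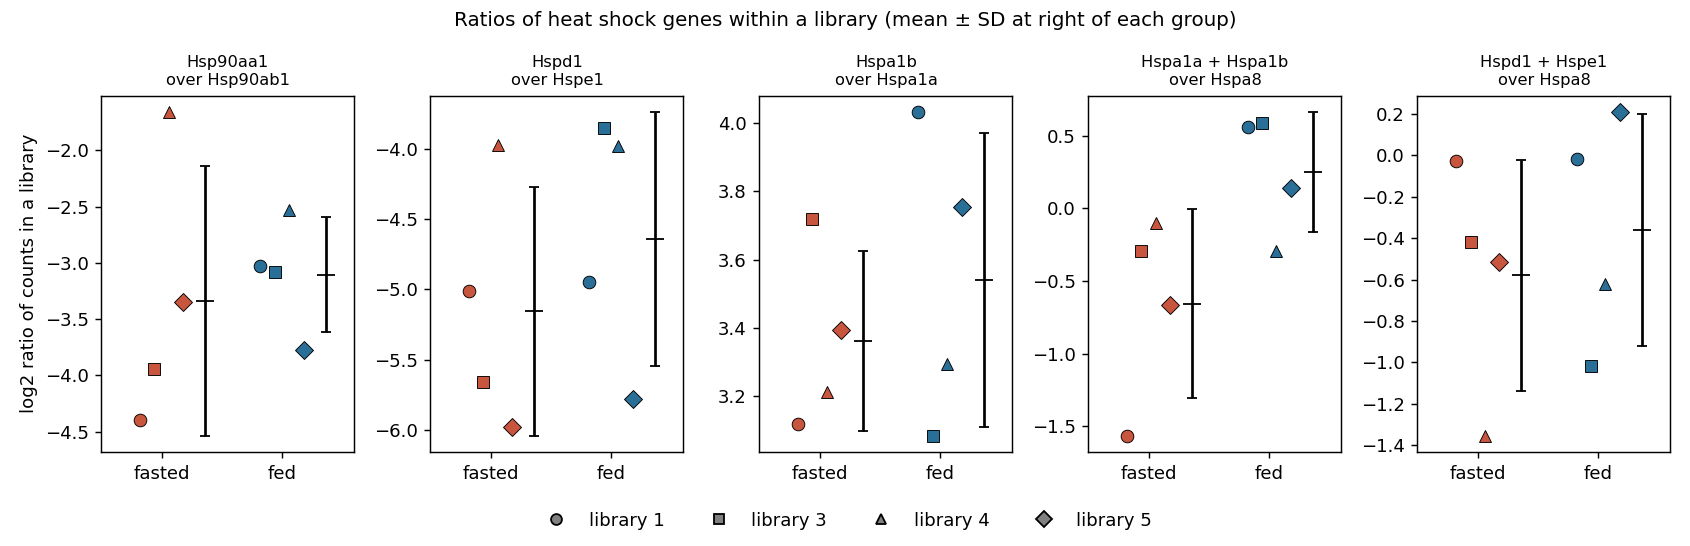
Log2 ratio of counts of 2 genes or gene pairs within each library (y axis), with mean ± SD beside each group of 4. For the inducible HSP70 genes over Hspa8, fasted libraries lie between -1.57 and -0.10 and fed libraries between -0.29 and 0.59; the other ratios overlap widely.

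The wider chaperone machinery was read from 8 lists of folding genes and a list of immediate early genes, with 87 tested genes in all. None of the 87 passed the adjusted threshold in either direction. Together 48 were negative and 39 positive, with a median log2 fold change of -0.076. Of all genes tested, 50.2% were negative. Of the 87, 13 had their highest level in fed library 3, all of them outside the immediate early list, against 10.2% of all genes.

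HSF and its regulators had no common direction. Hsf1, which encodes the master regulator of the heat shock response, stood at 18.04 ± 11.2 CPM in fasted and 15.9 ± 5.35 CPM in fed libraries, a log2 fold change of 0.18 ± 0.45. Of the 3 tested genes of HSF and its regulators, 1 was negative and 2 positive. Of 5 other HSP70 and HSP110 genes 3 were negative, with a median of -0.12. Among these the HSP110 relative Hspa4 had 0.15 ± 0.41 and the mitochondrial HSP70 gene Hspa9 had -0.15 ± 0.34. Of 12 J-domain genes 6 were negative and 6 positive, with a median of -0.15. Dnaja1, a cytosolic partner of HSC70, had -0.38 ± 0.37 and was 1 of 3 J-domain genes with the highest level in fed library 3. Exchange factors and BAG proteins counted 3 negative and 4 positive members with a median of 0.099, and Bag3, a stress-inducible partner of HSP70, had too few counts to be tested. Grpel1, the exchange factor of mitochondrial HSP70, stood at 54.0 ± 8.17 CPM in fasted and 74.0 ± 14.3 CPM in fed libraries (-0.46 ± 0.23).

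Of 14 co-chaperones of HSP90 and HSP70, 10 were below 0, against 50.2% of all genes, with a median of -0.19. How this list stands without fed library 3 was not tested. Stip1, the adaptor HOP that links HSP70 to HSP90, stood at 19.2, 18.9, 30.8 and 33.4 CPM in fasted libraries, against 51.3, 83.5, 43.5 and 17.8 CPM in fed libraries. Fed libraries 1, 3 and 4 lay above every fasted library and fed library 5 lay below them all. Its log2 fold change was -0.94 ± 0.41 (edgeR, unadjusted p = 0.044, Benjamini-Hochberg adjusted p = 1.00). St13, the HSP70-interacting protein HIP, had 6.96 ± 3.63 CPM in fasted and 13.2 ± 7.17 CPM in fed libraries (-0.94 ± 0.49), and it too was highest in fed library 3. Ahsa1, which stimulates the ATPase of HSP90, had -0.29 ± 0.50. Fkbp5, the relative of Fkbp4 that competes with it on HSP90 and is induced by glucocorticoids, had the opposite sign. It stood at 14.5, 10.9, 7.37 and 16.1 CPM in fasted libraries, against 3.12, 12.99, 8.13 and 9.59 CPM in fed libraries, a log2 fold change of 0.51 ± 0.44 with overlapping groups.

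Of 4 small heat shock protein genes 3 were negative, with a median of -0.46. Hspb1, an ATP-independent chaperone, ranged from 0.234 to 156 CPM in fasted and from 12.6 to 157 CPM in fed libraries, and was highest in the libraries numbered 4 and 5 of both groups. Cryab had the most negative log2 fold change of this list, -1.49 ± 1.25. It stood at 0, 0.976, 24.15 and 47.8 CPM in fasted libraries 1, 3, 4 and 5, against 27.2, 34.6, 83.1 and 59.6 CPM in fed libraries. It too was highest in the libraries numbered 4 and 5 of both groups. Those libraries also had the largest acinar shares. The part of acinar RNA in Hspb1, in Cryab and in the median of this list was not tested. The cytosolic chaperonin and prefoldin, which fold actin and tubulin, had 9 of 14 genes negative with a median of -0.11, and 6 of the 14 were highest in fed library 3. Summed over the 8 chaperonin subunits, levels were 281, 336, 329 and 289 CPM in fasted libraries 1, 3, 4 and 5, against 334, 440, 361 and 283 CPM in fed libraries. Cct2, a subunit, had a log2 fold change of -0.01 ± 0.22.

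Mitochondrial protein quality control genes counted 4 negative and 4 positive members, with a median of 0.037. Trap1, the mitochondrial HSP90, had 0.13 ± 0.45. Hscb, a J-domain protein of iron-sulphur cluster assembly, stood at 11.2, 13.5, 9.22 and 9.48 CPM in fasted libraries, against 1.34, 3.65, 6.58 and 6.85 CPM in fed libraries. The groups did not overlap, with a log2 fold change of 1.20 ± 0.48 that did not pass (edgeR, unadjusted p = 0.028, Benjamini-Hochberg adjusted p = 1.00). No overlap with fasted higher was found for 2 of the 87 list genes, Hscb and Hsf4, against 170 of all 7700 genes. With fasted lower it was found for 1 of the 87, against 101 of all 7700. Of the 20 immediate early genes 9 were negative and 11 positive, with a median of 0.10. The zinc finger factor Egr1 stood at 163 ± 67.3 CPM in fasted and 97.3 ± 18.4 CPM in fed libraries (0.74 ± 0.30). The nuclear receptor Nr4a1 stood at 723 ± 261 CPM in fasted and 469.9 ± 102 CPM in fed libraries (0.62 ± 0.27). Both had means in the opposite direction to the heat shock genes, and neither passed the adjusted threshold.

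**Figure D5:**
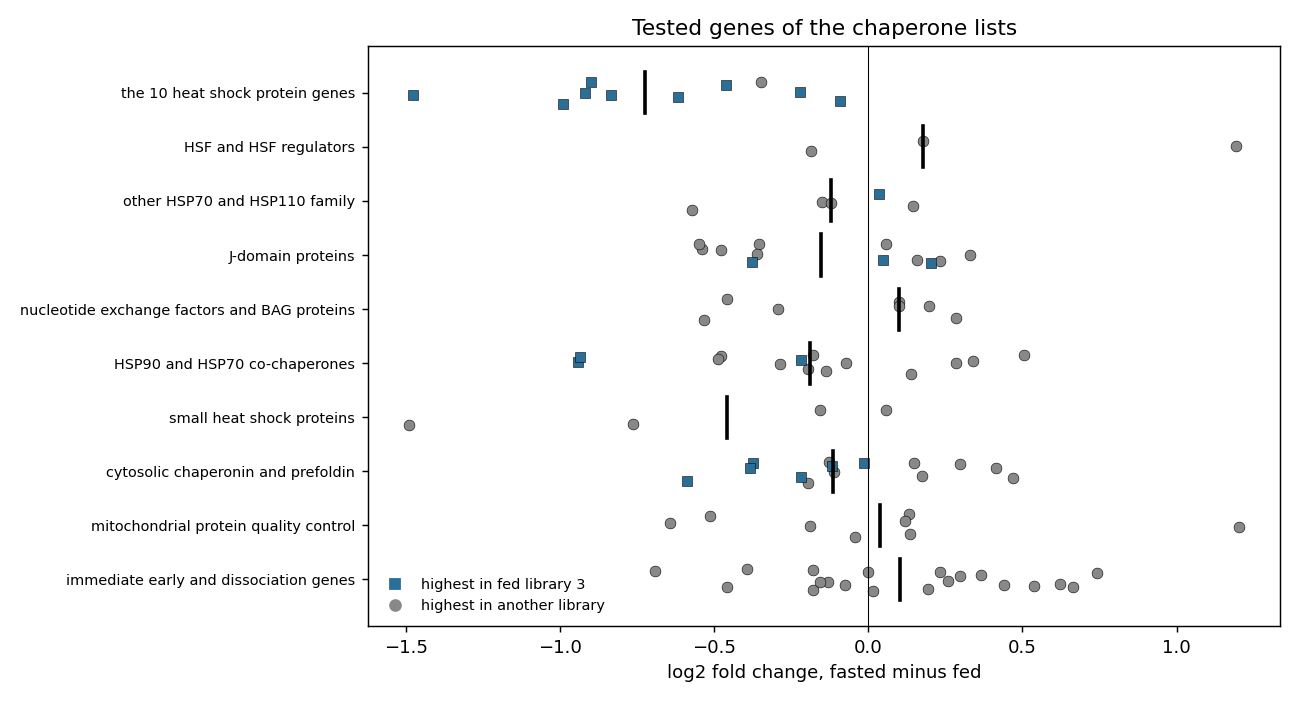
Log2 fold change, fasted minus fed (x axis), of every tested gene of the 10 heat shock protein genes and of 9 related lists (rows). Black bars are medians and squares are genes whose highest level is in fed library 3. The 10 heat shock genes lie below 0 with a median of -0.73, and 9 of them are squares; the other lists lie on both sides of 0.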

How the data were processed

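Trizol extraction was followed by CEL-seq2 library preparation, per the labels' protocols. The submitters' processing notes name STAR, edgeR and mm10, without versions. The table that the authors deposited holds raw whole-number counts for each gene, and the sources used here do not say whether these are reads or molecular identifiers. The 4 sequencing files of the series each hold both treatments, so column names gave each library its group, and control was taken as fed. The 4 fasted and 4 fed columns numbered 1, 3, 4 and 5 were used, 2 further columns were not, and 11 spike-in rows with 20 counts were left out. No label ties libraries to separate mice, and the p-values therefore cover only the spread among these libraries, which may be technical. No 2 libraries of a group agreed within counting noise (chi-square per degree of freedom of 13.6 or more).

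The test across genes was that of edgeR 4.0.16 (R 4.3.3; filterByExpr, 7700 genes kept, TMM factors from 0.538 to 2.11, robust quasi-likelihood test, no covariate, two-sided), with Benjamini-Hochberg adjustment and a threshold of 0.05. The common biological coefficient of variation was 0.506. Fold changes are log2 values, fasted minus fed, given with a standard error, and ratios used an offset of 0.5 counts. Alternatives were other scaling and filters, DESeq2 1.42.0, limma-voom (limma 3.58.1) with quality weights, a replicate block, an acinar covariate, removal of acinar and islet markers, and libraries left out. Deviations of libraries of equal number correlated at 0.23, 0.14, 0.50 and 0.13 (numbers 1, 3, 4 and 5). Each exceeded 0.1, and the numbers were treated as pairs, although 2 unlike pairs correlated more than numbers 3 and 5 did (fasted 5 with fed 4 at 0.215, fasted 3 with fed 1 at 0.197).

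The 10 members, the related lists and the rule for named genes were chosen with earlier results of these data known. Named list genes are a set of 11 key genes, where tested, and the 6 with the smallest p. Jund, Hsf4 and Cryab are named in addition to these. Of 107 list genes 106 were in the table and 87 were tested. Gene positions are from GENCODE vM21 on the same build, promoter windows from RefSeq, and sharing of 3′ ends was counted over exact 50-base words of GENCODE transcripts.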

Additional observations from a re-analysis of the deposited data

Results flagged for a closer look

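In 4 groups of 4 libraries the highest library stood far from the others, out of 30 groups checked. The limit flags about 1 in 20 groups of independent, normally spread values. Levels of genes that moved together in the same libraries are not independent, so 4 of 30 cannot be set against that rate. Hspa1a stood at 107.0 CPM in fed library 3, and Dnajb1 at 213.5 CPM in the same library. Hsp90aa1 stood at 115.2 CPM and Hsph1 at 15.3 CPM in fasted library 4. In each case the gap to the next library of the group was larger, as a share of the group's whole range, than Dixon's critical value for 4 samples allows.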

How the results depend on the processing

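None of the 10 genes was called in any of the 20 alternatives. Among all genes, 1 was called with library totals alone, 1 without a filter on low counts and 8 by DESeq2. With the replicate block 0 genes were called and 535 had an unadjusted p under 0.05, the members' median was -0.72 with 10 of 10 negative, and no call changed. Hspa8 turned to 0.12 and Hspe1 to 0.24 with library totals alone, where the median of all genes was 0.507. With the acinar covariate Hspa8 was at 0.12 and Hsp90aa1 at 0.18. Without the acinar-poor fasted libraries Hspa8 was at 0.21, Hsp90aa1 at 0.41 and the ratio of Hsp90aa1 to Hsp90ab1 at 0.60. Without those and fed library 3, chosen after seeing the data, 5 of 10 genes were negative and the median was 0.086, with Hspa1a, Hspa1b, Hspa8, Hsp90aa1 and Dnajb1 at 0.64, 0.19, 0.69, 0.75 and 0.49 and that ratio at 0.61. With a library left out, the members' median was between -1.07 (fasted library 4 out) and -0.17 (fed library 3 out). Over the same settings Hspa1a ran from -1.52 to 0.11, Hspa8 from -0.33 to 0.37 and Dnajb1 from -0.66 to 0.39, and the ratio of Hsp90aa1 to Hsp90ab1 from -0.79 to 0.12. The ratio of Hspd1 plus Hspe1 to Hspa8 ran from -0.44 to 0.041. The causes were not tested. Fkbp4 and Hsp90ab1 stayed negative in 20 of 20 alternatives, and Hspd1 and Hsph1, which the stricter filter removed, in 19 of 19. For the ratios, the pairing and the settings that drop 2 or 3 libraries cannot reach 0.05 at all; the other alternatives gave no adjusted p under 0.05. Depth limits Hspd1 and Hsph1 most, with as few as 13 and 14 counts in a library.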
